A study of Mus musculus with 18 samples.

Results

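The comparison described here set CD103+CD11b- cells against CD103-CD11b+ cells of the colon lamina propria, both sorted from 8-week-old BALB/c mice given 2% dextran sulfate sodium (DSS). It was chosen by the group labels and used 6 of the 18 arrays of the study, 3 per group, with all genes that had a usable probe set. Of 19937 genes represented by a probe set with a single gene symbol, 14003 passed the filter on low values and were tested. The remaining arrays held the double-positive CD103+CD11b+ cells after DSS (3 arrays) and the same 3 subsets from untreated BALB/c mice of the same age (9 arrays). Every group came from the MHC+CD11chigh gate of collagenase-digested colon. The array titles number the experiments, and experiments 4, 5 and 6 each gave 1 array of every DSS subset, whereas experiments 1 to 3 gave the untreated arrays. The labels do not give the number of mice behind an array, the length of DSS exposure or the day of sampling. P-values therefore measure the spread between these arrays, which may be partly technical.

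Dextran sulfate sodium given in drinking water injures the colon epithelium and is a standard mouse model of acute colitis. CD103 is the integrin alpha E chain, which binds E-cadherin on epithelium, and CD11b is the integrin alpha M chain of complement receptor CR3. Intestinal CD103+CD11b- dendritic cells correspond mainly to conventional type 1 dendritic cells (cDC1), which depend on the transcription factors IRF8 and BATF3, take up dead cells and present their antigens on MHC class I. Cells of the colon that lack CD103 and carry CD11b include conventional type 2 dendritic cells (cDC2), which depend on IRF4 and ZEB2, and cells of monocyte and macrophage origin that also carry CD11c and MHC class II.

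Expression is given as log2 values on the RMA scale, so that a difference of 1 is a doubling in signal, and every difference is CD103+CD11b- minus CD103-CD11b+. The test was limma's moderated linear model over all 18 arrays, and a gene was called at a Benjamini-Hochberg adjusted p under 0.05 over the 14003 genes. After DSS, 1195 genes were called (8.53%), of which 587 were higher (4.19%) and 608 lower (4.34%) in CD103+CD11b- cells. At least 2-fold differences were present in 191 of the higher and 249 of the lower genes, and at least 4-fold differences in 22 and 26. The 3 arrays of one group did not overlap those of the other for 3442 genes (24.6%), among them 1185 of the called genes. In 1194 of the called genes the difference had the same sign within each of the 3 experiments, against 42.8% of all genes tested. The median difference over all genes was -0.014 and the median standard error 0.166. Across all 34760 probe sets, the CD103+CD11b- arrays correlated with each other at 0.98 and the CD103-CD11b+ arrays at 0.978 to 0.981. Arrays of opposite groups correlated at 0.971 to 0.978. In sorted bulk RNA, fewer cells of a type and less RNA per cell cannot be told apart, and this holds for every difference below.

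**Figure D1:**
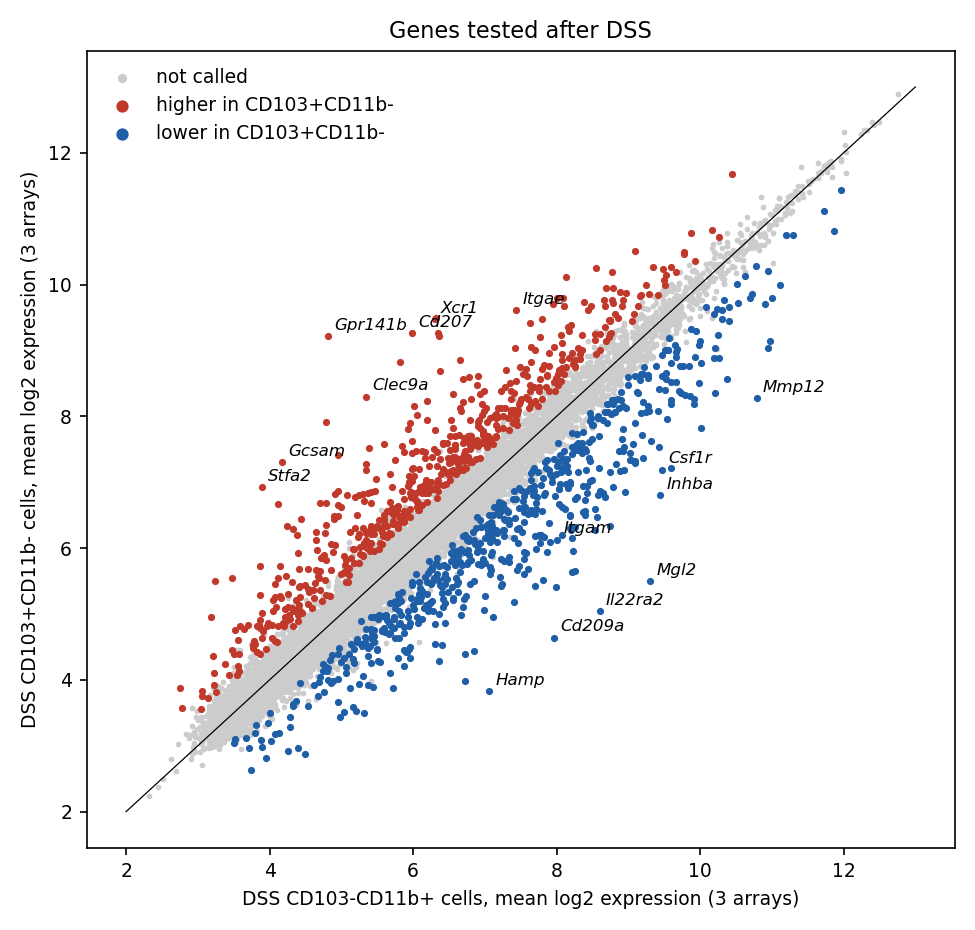
Mean log2 expression of each tested gene in CD103-CD11b+ cells (horizontal axis) and CD103+CD11b- cells (vertical axis) after DSS, 3 arrays each, with the line of equal level. The 587 genes called higher in CD103+CD11b- cells are red, the 608 called lower are blue, and 13 named genes far from the line plus the sort genes Itgae and Itgam are labelled.

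The transcripts of the sorting markers followed the gates. Itgae, which encodes CD103, measured 9.59, 9.58 and 9.66 in the CD103+CD11b- arrays of experiments 4, 5 and 6 and 7.32, 7.65 and 7.33 in the CD103-CD11b+ arrays. The groups were far apart, with a difference of 2.17 ± 0.13 (SE, adjusted p = 6.17e-09). Itgam, which encodes CD11b, measured 6.12, 6.13 and 6.13 in CD103+CD11b- cells and 8.17, 7.74 and 8.13 in CD103-CD11b+ cells, a difference of -1.89 ± 0.20 (adjusted p = 3e-06). Both genes were used for the sort and check the labels only. Itgax, the gene of CD11c by which all cells were gated, was lower in CD103+CD11b- cells by a small amount (-0.69 ± 0.16, adjusted p = 0.00845). Without the CD103+CD11b- array of experiment 5 or the CD103-CD11b+ array of experiment 6 the Itgax call was lost, with adjusted p up to 0.0576.

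The transcript with the widest separation in favour of CD103+CD11b- cells was Gpr141b, an orphan G protein-coupled receptor gene. It measured 9.24, 9.39 and 9.03 in CD103+CD11b- cells against 4.80, 5.09 and 4.54 in CD103-CD11b+ cells, a 21.2-fold difference (4.41 ± 0.22, adjusted p = 4.02e-10). No array of one group came within 3 log2 units of the other group. Cd207, which encodes the lectin langerin, measured 9.78, 8.91 and 9.10 against 6.81, 5.52 and 5.61. The Cd207 difference was 3.28 ± 0.30 (adjusted p = 4.6e-07), and in both subsets the array of experiment 4 was the highest. Xcr1, the chemokine receptor that defines cDC1, measured 9.46, 9.42 and 9.55 against 5.93, 6.57 and 6.40, a 9.04-fold difference (adjusted p = 1.42e-08). Clec9a, a receptor for exposed actin of dead cells, measured 8.33, 8.40 and 8.16 against 5.13, 5.18 and 5.69, a 7.79-fold difference (adjusted p = 3.02e-07). Non-overlap of the groups was a condition for picking these 4 receptor genes, and 24.6% of all genes tested met it.

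The other largest differences in the same direction included genes outside the usual cDC1 lists. Ucp1, the mitochondrial uncoupling protein best known from brown fat, measured 9.76, 9.0 and 8.91 in CD103+CD11b- cells and 6.79, 6.09 and 6.21 in CD103-CD11b+ cells, a 7.26-fold difference. Lrrk2, a kinase whose human orthologue is tied to Parkinson's disease and inflammatory bowel disease, measured 9.34, 9.37 and 9.06 against 6.28, 6.48 and 6.3. Its difference was 2.91 ± 0.13, and a second Lrrk2 probe set differed by 2.19. P3h2, a collagen prolyl hydroxylase, was 8.99-fold higher, and in the plot of the largest differences its double-positive arrays (6.2, 5.6 and 6.11) overlap the CD103-CD11b+ arrays (6.74, 6.2 and 6.02). Gcsam, a signalling protein first known from germinal centre B cells, was 8.84-fold higher, and Gpr33, an orphan chemoattractant-like receptor, 8.04-fold. Gcsam and Gpr33 are members of the cDC1 list used below. Stfa2, a stefin that inhibits cysteine proteases, measured 7.67, 7.24 and 5.87 against 3.37, 4.13 and 4.17. The CD103+CD11b- array of experiment 6 was the low one of its group but still above all 3 of the other group. Tssc4 (3.13 ± 0.24), Mab21l3 (2.55 ± 0.19), Bcl2l14 (2.47 ± 0.21) and Dpy19l3 (2.31 ± 0.19) were also higher. Ppef2, a calcium-binding phosphatase gene, lay under the filter level of 3.51 in CD103-CD11b+ cells (mean 3.24), so that its 2.25 is a lower bound.

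In the opposite direction Mgl2 had the largest difference, and the C-type lectin genes Cd209a and Clec10a were also among the 15 largest. Mgl2, one of the mouse macrophage galactose lectins, measured 5.52, 5.30 and 5.68 in CD103+CD11b- cells and 9.74, 8.87 and 9.28 in CD103-CD11b+ cells, 13.9-fold less (-3.80 ± 0.21, adjusted p = 1.39e-09). Cd209a, the mouse relative of DC-SIGN, measured 5.11, 4.30 and 4.50 against 8.38, 8.09 and 7.40, 9.97-fold less. Clec10a, the other galactose lectin, measured 3.65, 4.38 and 3.91 against 6.93, 6.68 and 6.56, 6.70-fold less. For each of these lectins the double-positive cells stood close to CD103-CD11b+ cells, with means of 8.91, 7.58 and 7.08.

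Several genes of secreted proteins were also among the 15 largest differences in this direction, and Il22ra2 and Hamp ranked between the lectin genes. Il22ra2, which encodes the soluble receptor that binds and blocks IL-22, measured 5.14, 4.90 and 5.08 in CD103+CD11b- cells and 9.02, 8.45 and 8.34 in CD103-CD11b+ cells. This was 11.8-fold less in CD103+CD11b- cells (-3.57 ± 0.25, adjusted p = 2.66e-08), with double-positive cells in between at 6.72 ± 0.47 (SD, n = 3). Hamp, which encodes the iron hormone hepcidin, measured 4.23, 3.88 and 3.38 against 7.43, 7.03 and 6.71. The gap of 3.23 log2 units was present in every experiment, and double-positive cells (mean 6.79) lay beside CD103-CD11b+ cells. Inhba, the subunit gene of activin A, measured 6.5, 7.05 and 6.85 against 9.0, 9.55 and 9.77, 6.25-fold less. Mmp12, macrophage elastase, measured 8.65, 8.09 and 8.09 against 10.88, 10.61 and 10.87, 5.70-fold less. These genes too were picked for not overlapping between the groups. Gm5150, a predicted gene, measured 5.32, 6.65 and 4.99 against 8.20, 8.26 and 8.29, and the CD103+CD11b- array of experiment 5 was the one nearest the other group.

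**Figure D2:**
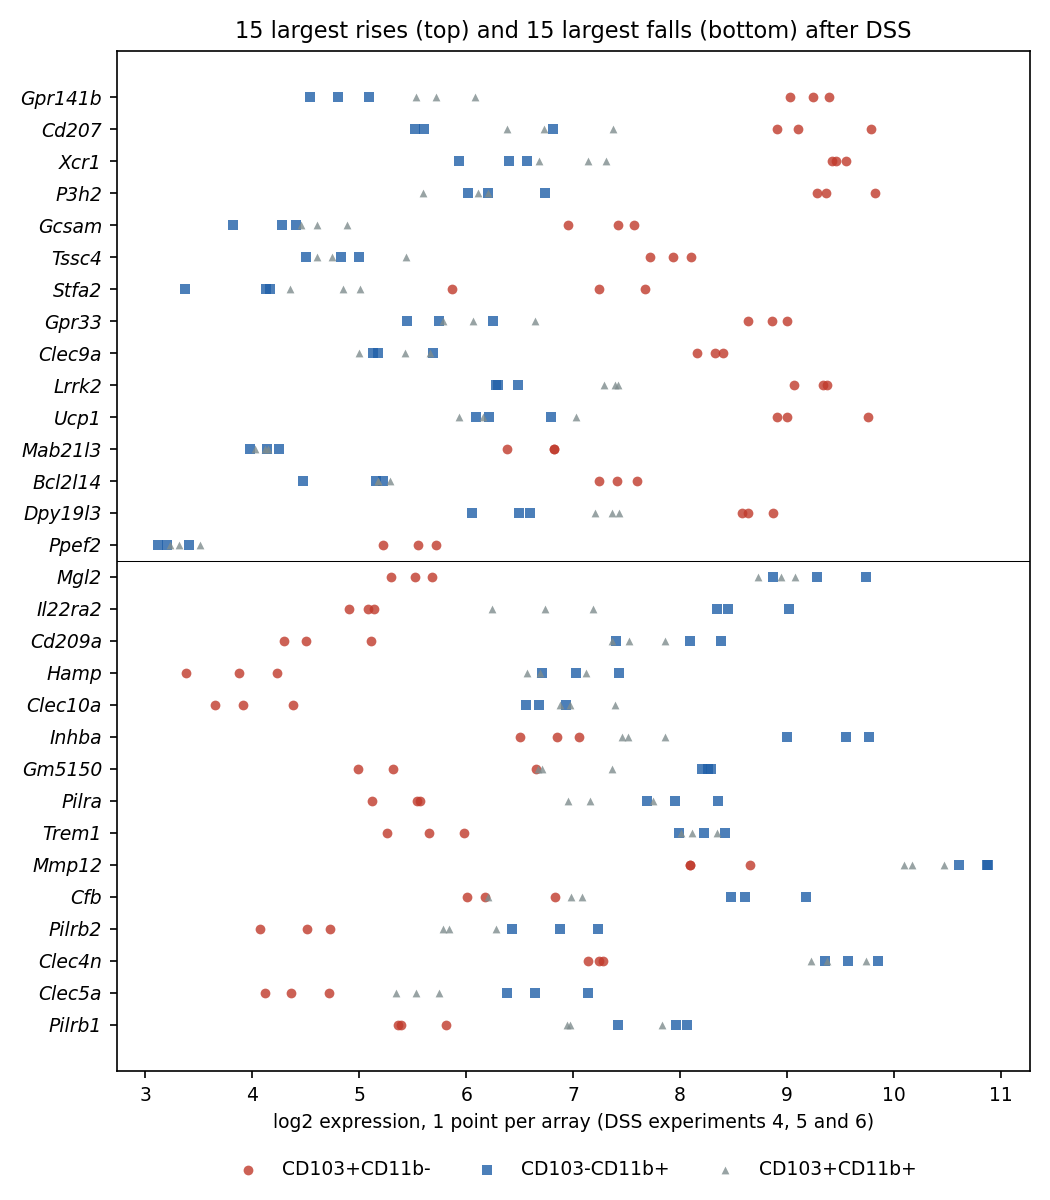
Log2 expression in each DSS array (1 point per array, experiments 4, 5 and 6) for the 30 called, non-overlapping genes that differed most, 15 in each direction, with CD103+CD11b+ cells as grey triangles. By the choice of genes, red circles and blue squares do not overlap. Mgl2 runs from 5.30 to 5.68 in CD103+CD11b- and from 8.87 to 9.74 in CD103-CD11b+ cells.

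Promoter sequences are shown for the first 2 genes of each direction with an entry in the RefSeq table of GRCm38.p6, to show the sequence before the start of genes with some of the largest differences in each direction. Each run is the 250 bases before the annotated start, on the gene's own strand, 5′ to 3′, and capitals mark a match to a searched motif on either strand. Gpr141b lies at chr13:19732952-19733201 (minus strand), Cd207 at chr6:83677858-83678107 (minus strand), Mgl2 at chr11:70130107-70130356 (plus strand) and Cd209a at chr8:3748985-3749234 (minus strand).
Gpr141b: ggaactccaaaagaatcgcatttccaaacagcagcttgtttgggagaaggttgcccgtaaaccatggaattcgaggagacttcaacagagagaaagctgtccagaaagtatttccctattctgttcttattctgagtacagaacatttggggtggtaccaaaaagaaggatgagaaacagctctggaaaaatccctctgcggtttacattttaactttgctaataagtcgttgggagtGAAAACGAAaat
Cd207: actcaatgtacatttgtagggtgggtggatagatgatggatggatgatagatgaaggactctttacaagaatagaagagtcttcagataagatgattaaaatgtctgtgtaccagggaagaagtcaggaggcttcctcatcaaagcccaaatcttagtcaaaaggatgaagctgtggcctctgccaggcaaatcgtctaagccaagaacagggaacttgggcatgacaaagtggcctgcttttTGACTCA
Mgl2: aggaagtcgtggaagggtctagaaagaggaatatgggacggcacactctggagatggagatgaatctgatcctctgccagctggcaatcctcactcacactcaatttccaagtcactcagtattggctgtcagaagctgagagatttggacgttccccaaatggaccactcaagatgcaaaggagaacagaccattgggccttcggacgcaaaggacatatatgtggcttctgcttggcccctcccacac
Cd209a: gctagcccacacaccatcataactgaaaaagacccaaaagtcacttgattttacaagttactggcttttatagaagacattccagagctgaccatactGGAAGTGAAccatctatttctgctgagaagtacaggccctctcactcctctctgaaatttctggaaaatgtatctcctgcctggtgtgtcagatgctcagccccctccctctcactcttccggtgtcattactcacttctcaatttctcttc
The motifs were TGANTCA (AP-1 and BATF), GAAANNGAA (IRF), GGAANNGAA (ETS with IRF), GAGGAAGT (PU.1) and TTGCNNAAT (C/EBP), searched on both strands. Gpr141b held an IRF motif 12 to 4 bases before the start, Cd207 an AP-1 motif 7 to 1 bases before it, and Cd209a an ETS-IRF motif 152 to 144 bases before it. The letters of the 5 motifs do not occur in the Mgl2 window. Among 11082 tested genes with a promoter entry, the IRF motif occurred in 6.28%, against 8.09% of 482 genes called higher and 10.3% of 497 called lower. The ETS-IRF motif occurred in 6.18%, 5.39% and 7.04% of these sets, and the AP-1 motif in 4.87%, 4.36% and 5.63%. The PU.1 motif occurred in 2.36%, 3.73% and 4.63%, and the C/EBP motif in 1.54%, 1.66% and 0.805%. Over all 27025 promoters of the table the shares were 7.16% for IRF, 7.03% for ETS-IRF, 6.87% for AP-1, 2.44% for PU.1 and 2.17% for C/EBP. These shares are descriptions without a test.

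The cDC1 genes were higher in CD103+CD11b- cells almost throughout. The cDC1 programme had 29 tested genes, with 22 calls in favour of CD103+CD11b- cells and 0 against (25 and 0 at an unadjusted p under 0.05), and a median difference of 1.18 against -0.014 over all genes. The 22 calls are 75.9% of the list, against 4.19% of all genes called higher. Without Itgae, which was used for the sort, 21 of 28 were higher (median 1.11). Besides the receptors above, Naaa, a lipid amidase, measured 10.03, 10.15 and 10.16 against 8.18, 7.84 and 8.37, a 3.96-fold difference. Ly75 (DEC-205, an endocytic receptor) was 3.38-fold higher, and Wdfy4, which cDC1 need for cross-presentation of cell-borne antigen, 2.27-fold. Tlr3, the sensor of double-stranded RNA, was 1.81-fold higher. The 7 members not called were Ifi205 (0.71), Id2 (0.46), Snx22 (0.43), Cxcr3 (0.28), Nfil3 (0.03), Tlr12 (-0.08) and Itgb8 (-0.51). The label therefore matched the markers: cells sorted as CD103+CD11b- carried the cDC1 transcripts. Over the 29 genes, the mean level was 7.69 to 7.75 in the CD103+CD11b- arrays and 6.27 to 6.42 in the CD103-CD11b+ arrays.

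The general dendritic cell genes also favoured CD103+CD11b- cells, though less uniformly. Of 19 tested, 6 were higher (31.6%, against 4.19% of all genes) and 1 lower (Itgax, by which the cells were gated), with a median of 0.38. Flt3, the receptor for the growth factor on which dendritic cells depend, measured 8.71, 8.35 and 8.65 in CD103+CD11b- cells and 6.73, 6.65 and 6.70 in CD103-CD11b+ cells. That is a 3.68-fold difference (1.88 ± 0.17, adjusted p = 3.55e-07). Adam19 (1.79), Ap1s3 (1.22), Jaml (1.02), Dpp4 (0.92) and Kit (0.91) were the other genes called higher. Zbtb46, the transcription factor often used to mark classical dendritic cells, measured 6.5, 6.35 and 6.38 against 6.0, 6.08 and 5.94. Its difference of 0.40 ± 0.15 was not called (adjusted p = 0.128), although the arrays did not overlap, and it was called when only the 9 DSS arrays were fitted (adjusted p = 0.044).

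Many cDC2 genes were lower in CD103+CD11b- cells. Of 24 tested, 12 were lower (50%, against 4.34% of all genes) and 2 higher, with a median of -0.63. Without Itgam, on which the cells were sorted, 11 of 23 were lower and the median was -0.35. Sirpa, the inhibitory receptor that defines cDC2, measured 7.26, 7.41 and 7.31 against 9.06, 8.88 and 9.15, 3.26-fold less (adjusted p = 1.8e-07). Tmem176a (-1.87), an ion channel gene, and Cd300a (-1.75), an inhibitory receptor, were lower by similar amounts, and Zeb2 and the galactose lectins were lower too. Clec12a, an inhibitory lectin of dendritic cells listed here with cDC2, went the other way and measured 7.43, 7.60 and 7.61 against 5.63, 5.84 and 6.07, 3.25-fold more. Relb was the other gene called higher (0.56), a call that was lost without any of 3 single arrays (adjusted p up to 0.099). Klf4 (-0.20), which helps specify a cDC2 subset, and Notch2 (0.30) were not called.

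Among 43 tested lineage transcription factors, 8 were higher (18.6%) and 10 lower (23.3%) in CD103+CD11b- cells, against 4.19% and 4.34% of all genes. Irf8 measured 8.71, 8.61 and 9.01 in CD103+CD11b- cells and 7.89, 7.56 and 8.01 in CD103-CD11b+ cells, a 1.94-fold difference (adjusted p = 0.00161). Batf3 measured 6.96, 6.95 and 6.34 against 6.10, 5.82 and 5.71, a 1.84-fold difference (adjusted p = 0.00156). Bcl6, a repressor that favours cDC1, was 2.03-fold higher, and Rbpj, the DNA-binding partner of Notch, 1.83-fold. Irf5 (0.67), Klf2 (0.65), Runx1 (0.62) and Relb (0.56) completed the higher genes. Id2, required for cDC1 development, measured 10.29, 10.25 and 10.36 against 10, 9.74 and 9.77. The arrays did not overlap, but the difference of 0.46 ± 0.15 missed the threshold (adjusted p = 0.0589). Id2 was called in 6 of the 16 alternatives, with adjusted p from 0.0245 to 0.043. Among these was the replicate block, which fits the experiment number as a term (adjusted p = 0.0359). Nfil3, which acts upstream in cDC1 development, differed by 0.03 ± 0.13 and was not called (adjusted p = 0.958).

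The factors lower in CD103+CD11b- cells were led by Tfec, a relative of MITF found in myeloid cells, which measured 4.17, 4.11 and 4.59 against 6.55, 6.04 and 6.49. Zeb2, the repressor on which cDC2 and monocytes depend, measured 6.64, 6.98 and 6.77 against 8.66, 8.47 and 8.60, 3.44-fold less (adjusted p = 5.71e-07). The 3 arrays of each subset lay within a narrow band for Zeb2. Irf4 measured 6.49, 6.3 and 6.47 against 7.47, 7.27 and 7.27, 1.89-fold less (adjusted p = 0.000597). Prdm1 (-1.25), Cebpa (-1.15), Ets2 (-1.08) and Tcf4 (-0.81) were also lower. Cebpb (-0.65), Nr1h3 (-0.65) and Hif1a (-0.43) were lower too, but their calls were lost without at least 1 single array, with adjusted p up to 0.061, 0.0789 and 0.206. Factors shared by myeloid cells were not called: Spi1, which encodes PU.1, differed by -0.14, Runx3 by 0.05, Ikzf1 by 0.14 and Maf by -0.11.

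**Figure D3:**
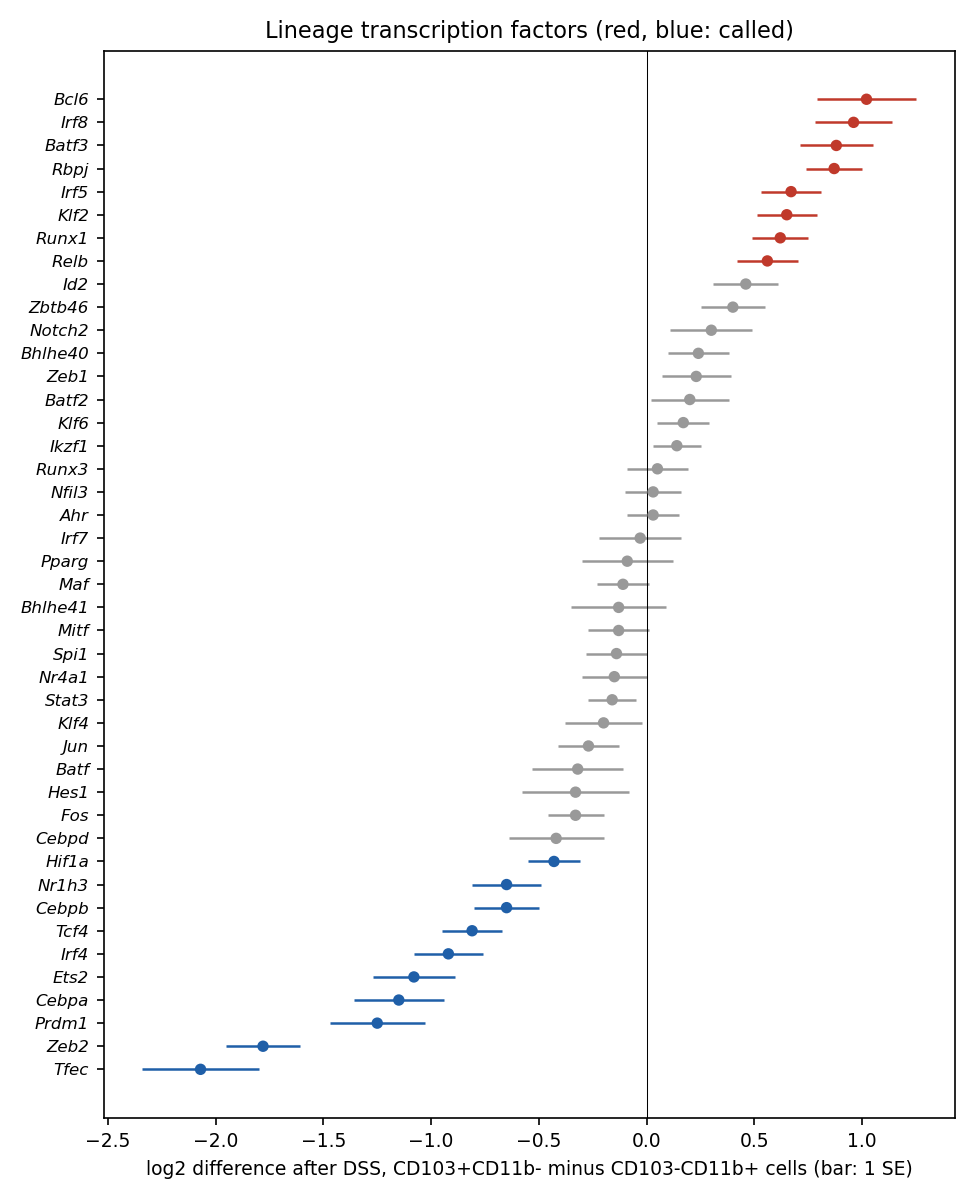
Log2 difference after DSS (CD103+CD11b- minus CD103-CD11b+) of the 43 tested lineage transcription factors, with bars of 1 SE from limma. The 8 factors called higher (red) run from 0.56 (Relb) to 1.02 (Bcl6), and the 10 called lower (blue) from -2.07 (Tfec) to -0.43 (Hif1a).

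Macrophage genes were lower in CD103+CD11b- cells. Of 32 tested, 18 were lower (56.2%, against 4.34% of all genes) and 1 higher, with a median of -0.77. Csf1r, the receptor for the macrophage growth factor, measured 7.04, 7.11 and 7.43 in CD103+CD11b- cells and 9.58, 9.36 and 9.46 in CD103-CD11b+ cells, 4.84-fold less (-2.28 ± 0.17, adjusted p = 5.37e-08). Fcgr1, which encodes the high-affinity IgG receptor CD64, measured 4.42, 4.74 and 4.47 against 6.62, 6.11 and 6.21, 3.41-fold less. Mertk (4.01 against 4.18, difference -0.17) and Cd163 (0.06), both found on resident gut macrophages, were not called. Timd4 was called higher by 0.66, but this call was lost in 8 of the alternatives, with adjusted p up to 0.257. The replicate block kept the Timd4 call (adjusted p = 0.00739). Over the 32 genes the mean level ran from 6.90 to 6.99 in the CD103+CD11b- arrays and from 7.65 to 7.92 in the CD103-CD11b+ arrays.

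Monocyte and inflammatory genes gave a similar picture, with 14 of 23 lower (60.9%, against 4.34% of all genes) and 1 higher (median -0.69). Trem1, an amplifying receptor of monocytes and neutrophils, measured 5.65, 5.26 and 5.98 against 8.42, 7.99 and 8.22, 6.0-fold less (adjusted p = 4.29e-07). F10, coagulation factor X, measured 4.95, 5.57 and 5.74 against 7.80, 7.10 and 8.20, 4.84-fold less. Lyz1, a lysozyme, was 3.74-fold less, Ms4a4c 3.72-fold and Gpnmb 3.78-fold. Itgal, an adhesion integrin chain, was the gene called higher (0.63), and its call was lost without 5 of the 6 arrays taken singly (adjusted p up to 0.198). The mean level of the 23 genes was 6.05 to 6.25 in CD103+CD11b- and 7.12 to 7.17 in CD103-CD11b+ arrays. The macrophage and monocyte levels were lower in the same arrays as the myeloid genes of the following paragraphs, and their part in those differences was not tested. Ly6c2, a further marker of these cells, was not analysed here for lack of a usable probe set.

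Complement genes and Fc receptors had the lowest median of the lists described, -1.47. In CD103+CD11b- cells 14 of 20 genes were lower (70%, against 4.34% of all genes) and 0 higher. At an unadjusted p under 0.05 these counts were 15 and 0. Without the sort and gate genes Itgam and Itgax, 12 of 18 were lower and the median was again -1.47. C1qa, a chain of the first complement component, measured 6.97, 6.73 and 6.86 against 9.04, 8.89 and 8.92, 4.28-fold less (adjusted p = 1.79e-07). C1qc was 3.53-fold less. Cfb, factor B of the alternative pathway, measured 6.01, 6.18 and 6.83 against 8.48, 8.61 and 9.18, 5.33-fold less. In both subsets the array of experiment 6 was the highest for Cfb. Cfp, properdin, which stabilises the alternative convertase, was 3.51-fold less. The C5a receptor gene C5ar1 was 2.55-fold less. C1qa and C1qc are made by macrophages and are also on the macrophage list, so that the lists are not independent. The 6 members not called ranged from -0.34 (C2) to 0.14 (Itgb2, the beta chain shared by CD11a, CD11b and CD11c).

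Of 29 tested pattern recognition genes, which sense microbes, 11 were lower (37.9%, against 4.34% of all genes) and 2 higher in CD103+CD11b- cells (median -0.52). Tlr4, the endotoxin receptor, measured 5.55, 5.47 and 5.36 against 7.51, 7.10 and 7.11, 3.43-fold less (adjusted p = 9.82e-06). Clec4n, which encodes Dectin-2, measured 7.24, 7.14 and 7.28 against 9.57, 9.85 and 9.35, 5.16-fold less. Clec4d (-1.70), Clec4e, which encodes Mincle (-1.59), and Clec5a (-2.32) were lower as well. Tlr8 lay under the filter level in CD103+CD11b- cells (mean 2.88 against 4.50), and its -1.63 is therefore a bound. Tlr7 was lower by 0.94, a call lost without any of 3 single arrays (adjusted p up to 0.117). The sensors called higher were Tlr3 and Nod2, the latter a cytosolic receptor for bacterial cell wall fragments, at 6.93, 6.74 and 6.81 against 6.14, 6.16 and 6.10 (1.62-fold, adjusted p = 0.0029).

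Of 29 endocytic lectins, scavenger receptors and related genes, 14 were lower (48.3%) and 4 higher (13.8%), against 4.34% and 4.19% of all genes. The median of the list was -0.60. The genes higher in CD103+CD11b- cells were Cd207, Clec9a, Ly75 and Timd4, and the last of these is uncertain as stated above. Among those lower, Msr1, scavenger receptor A, measured 5.44, 5.86 and 5.54 against 7.77, 7.55 and 7.32, 3.81-fold less. Mfge8, a bridge between dead cells and phagocytes, was 3.43-fold less, and Cd209d 2.95-fold. Double-positive cells had the highest mean Mfge8 level of the 3 DSS subsets (9.47, against 9.10 in CD103-CD11b+ cells).

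Paired immune receptors of myeloid cells were lower in 22 of 33 cases (66.7%, against 4.34% of all genes) and higher in 2 (median -0.87). Pilra, an inhibitory receptor, measured 5.12, 5.57 and 5.54 against 7.95, 7.69 and 8.35, 6.0-fold less (adjusted p = 1.57e-05). Its activating relatives Pilrb1 and Pilrb2 were 4.91-fold and 5.31-fold less. The Pilr genes are close relatives, so that probes of one may pick up another. The receptors higher in CD103+CD11b- cells were Clec12a and Treml4, which binds dead cells (2.24-fold, adjusted p = 0.00383).

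Cytokine genes differed in both directions: 2 of 31 were higher (6.45%) and 6 lower (19.4%), against 4.19% and 4.34% of all genes, and the median was -0.13. Il12b, the shared chain of IL-12 and IL-23, measured 7.22, 7.35 and 7.80 in CD103+CD11b- cells and 5.69, 5.65 and 6.26 in CD103-CD11b+ cells, 3.01-fold more (adjusted p = 0.000235). Il15, which sustains CD8 T and NK cells, measured 7.27, 6.70 and 6.37 against 5.40, 4.89 and 5.29, also 3.01-fold more. Both genes were higher in every experiment. The partner chains Il12a (-0.13) and Il23a (-0.27) were not called.

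Of the cytokine genes lower in CD103+CD11b- cells, Osm, oncostatin M, measured 5.25, 5.84 and 5.92 against 7.51, 7.45 and 7.40, 3.43-fold less. Il1rn, the natural antagonist of the IL-1 receptor, measured 7.90, 8.04 and 7.95 against 9.61, 9.48 and 9.52, 2.99-fold less (adjusted p = 2.68e-07). Il33 measured 4.47, 4.24 and 4.10 against 5.92, 5.16 and 5.55, a low level in both subsets. Its call (adjusted p = 0.00739) was lost without the CD103-CD11b+ array of experiment 4 (adjusted p = 0.0513). The replicate block kept the Il33 call (adjusted p = 0.000173). The inflammatory cytokines Il1b (0.04), Il6 (0.35) and Tnf (-0.21) were not called, nor was Il10 (-0.91 ± 0.37, adjusted p = 0.175).

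Of 30 chemokine genes tested, limma called 0 higher in CD103+CD11b- cells and 7 lower (23.3%, against 4.34% of all genes), with a median of -0.21. At an unadjusted p under 0.05 these counts were 1 and 11. Ccl24, an eosinophil attractant, measured 4.90, 5.03 and 5.25 against 6.73, 6.67 and 7.56, 3.81-fold less (adjusted p = 0.00237). Ccl9 (3.31-fold) and Ccl6 (2.58-fold), related myeloid attractants, were also less. Cxcl14 was 1.97-fold less. Ccl5 overlapped between the groups, and its call (adjusted p = 0.0487) was lost in 10 of the alternatives, with adjusted p up to 0.231. Within each experiment Ccl5 was lower in CD103+CD11b- cells, and the replicate block kept its call (adjusted p = 0.0042).

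Receptors for chemokines and lipid mediators were lower in 10 of 28 cases (35.7%) and higher in 2 (7.14%), against 4.34% and 4.19% of all genes. The median of the list was -0.38. Ccr1 measured 5.80, 6.33 and 6.31 against 8.33, 8.09 and 8.21, 4.18-fold less. S1pr3, a sphingosine phosphate receptor, measured 4.33, 3.65 and 3.67 against 5.72, 5.39 and 5.21, 2.94-fold less. Cmklr1, the chemerin receptor (-1.19), and Ccr9, a gut homing receptor (-1.14), were lower. The receptors higher were Xcr1 and Ptger2, a prostaglandin E2 receptor, which was 2.42-fold more (adjusted p = 0.000224). Ccr7, which guides dendritic cells to lymph nodes, was high in both subsets (10.92 ± 0.04 and 10.87 ± 0.10, SD, n = 3), and its difference of 0.05 ± 0.12 was not called.

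Antigen presentation genes were called in both directions. For MHC class I, 5 of 22 genes were higher (22.7%, against 4.19% of all genes) and 2 lower (9.09%, against 4.34%), with a median of 0.10. The class I heavy chain genes H2-K1, H2-D1 and H2-T23 were not tested for lack of a usable probe set. The peptide transporter genes led: Tap2 measured 7.45, 7.29 and 7.67 against 5.96, 6.14 and 6.27, 2.54-fold more. Tap1 measured 8.86, 9.02 and 9.12 against 7.28, 8.02 and 7.80, 2.46-fold more (adjusted p = 2.56e-05). Rab43, a vesicle GTPase used in cross-presentation, was 1.70-fold more. Psmb9, an immunoproteasome subunit, was higher by 1.19 ± 0.33, but its call was lost in 5 alternatives (adjusted p up to 0.182). The replicate block kept the Psmb9 call (adjusted p = 0.00118). Cybb, the catalytic subunit of the phagocyte NADPH oxidase, measured 7.38, 7.5 and 7.73 against 9.38, 9.47 and 9.42, 3.70-fold less, and Ifi30, a lysosomal thiol reductase, was 1.48-fold less.

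For MHC class II, 4 of 17 genes were lower (23.5%, against 4.34% of all genes) and 1 higher (5.88%, against 4.19%), with a median of -0.01. All 4 lower genes encode lysosomal enzymes: Ctsl (-1.23), Lgmn (-1.02), Ctss (-0.82) and Ifi30 (-0.57). Ctss, the protease that trims the invariant chain, measured 9.62, 9.80 and 9.73 against 10.66, 10.47 and 10.47. H2-Ob, part of the inhibitor of peptide exchange, was the gene higher (1.48-fold, adjusted p = 0.00578). The structural genes H2-Aa (-0.01), H2-Ab1 (-0.10) and Cd74 (-0.02) were not called, with standard errors that leave room for small differences (0.14 for H2-Ab1).

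Of 26 maturation genes, 5 were higher (19.2%, against 4.19% of all genes) and 3 lower (11.5%, against 4.34%), with a median of 0.17. Birc3, an inhibitor of apoptosis, was 1.55-fold more (adjusted p = 0.00903). Icam1 (0.54), Relb (0.56), Socs1 (0.49) and Cd274, which encodes PD-L1 (0.42), were called higher, but each of these calls was lost without some single array, with adjusted p up to 0.0884, 0.099, 0.221 and 0.175. The replicate block also ended the Socs1 call (adjusted p = 0.0567). Socs2, a feedback inhibitor of cytokine signalling, measured 6.35, 6.34 and 5.88 against 7.94, 7.47 and 7.90, 2.98-fold less (adjusted p = 1.71e-05), and a second probe set differed by -0.95. Fscn1, the actin bundler of mature dendritic cells, was 1.77-fold less. Cd40 (0.07), Cd80 (0.17) and Cd86 (0.25) were not called.

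Of 24 type I interferon-stimulated genes, 1 was higher (Mx1, 1.66-fold, adjusted p = 0.00136) and 1 lower (Rtp4, -1.20), together 8.33% of the list against 8.53% of all genes. Under the replicate block these counts were 3 and 5. The Rtp4 call was lost without either of 2 single arrays (adjusted p up to 0.0682). Of 20 interferon-gamma response genes, 3 were higher, namely Ido1 (1.00), Gbp5 (0.85) and Socs1 (0.49), and 1 was lower, Gbp7 (-0.66), together 20% of the list. Under the replicate block 2 were higher and 3 lower, since the Socs1 call was lost and Gbp4 (-0.99, adjusted p = 0.00554) and Acod1 (-1.17, adjusted p = 0.0133) were called. Each of these 4 calls was lost without at least 1 single array, with adjusted p up to 0.133 for Ido1, 0.099 for Gbp5, 0.221 for Socs1 and 0.0505 for Gbp7.

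Retinoic acid and TGF-beta genes, by which gut dendritic cells instruct homing and regulatory T cells, were mostly not called: 2 of 32 were higher (6.25%, against 4.19% of all genes) and 4 lower (12.5%, against 4.34%). Dhrs9, a retinol dehydrogenase, measured 6.17, 5.43 and 5.87 against 4.93, 4.59 and 4.87, 2.04-fold more (adjusted p = 0.00151). Dhrs3, which reduces retinal back to retinol, measured 5.90, 5.70 and 5.85 against 6.91, 7.10 and 6.92, 2.23-fold less (adjusted p = 2.27e-05). Dhrs9 and Dhrs3 act in opposite directions in the same step and were called in opposite directions, but the balance of that step was not tested. Aldh1a2, which makes retinoic acid, differed by 0.30 ± 0.24 and Itgb8, which activates TGF-beta, by -0.51 ± 0.28, neither of them called. The Rara (0.50) and Rdh11 (-0.64) calls were lost without several single arrays, with adjusted p up to 0.15 and 0.155, and Rdh11 also with the replicate block (adjusted p = 0.0507).

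Tissue repair, matrix and coagulation genes were lower in 14 of 35 cases (40%, against 4.34% of all genes) and higher in 1 (median -0.50). The matrix metalloproteinase Mmp19 measured 9.23, 9.39 and 8.81 against 10.97, 11.15 and 10.82, 3.57-fold less, and the collagenase Mmp13 7.01, 7.51 and 7.0 against 8.95, 8.77 and 8.95, 3.29-fold less. With Mmp12 these proteases were lower in every experiment. Adam8, a membrane protease, was the gene higher (2.25-fold, adjusted p = 0.000144).

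Lipid genes were lower in 9 of 27 cases (33.3%, against 4.34% of all genes) and higher in 1, Naaa (median -0.24). Abca1, the cholesterol exporter, measured 6.90, 6.68 and 6.72 against 8.93, 8.39 and 8.70, 3.75-fold less, and Fabp5, a fatty acid carrier, was 3.01-fold less. Apoe was high in both subsets (10.82 against 11.87) and 2.07-fold less in CD103+CD11b- cells. Of 23 glycolysis and hypoxia genes, 4 were lower (17.4%), led by the lactate exporter Slc16a3 (2.26-fold less, adjusted p = 0.00022). Of 29 cell cycle genes limma called 0, with 2 higher and 1 lower at an unadjusted p under 0.05, and their median difference was 0.05. Mki67 differed by -0.02 and Top2a by 0.28.

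Immediate-early and heat shock genes, which respond to tissue digestion and sorting, gave 3 higher and 3 lower of 25, or 12% each way against 4.19% and 4.34% of all genes. Nr4a2 was 1.99-fold more (adjusted p = 7.81e-06), Atf3 1.60-fold and Dusp2 1.72-fold, whereas Fos (-0.33), Jun (-0.27) and Egr1 (-0.18) were not called. The Dusp2 call was lost without 1 array (adjusted p = 0.0559). Egr2, Fosl2 and Ier3 were called lower (-0.83, -0.51 and -0.49), and these calls were lost without at least 2 single arrays each, with adjusted p up to 0.0928, 0.0619 and 0.0945. The mean level of the 25 genes ran from 8.73 to 8.86 in one subset and from 8.73 to 8.87 in the other.

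**Figure D4:**
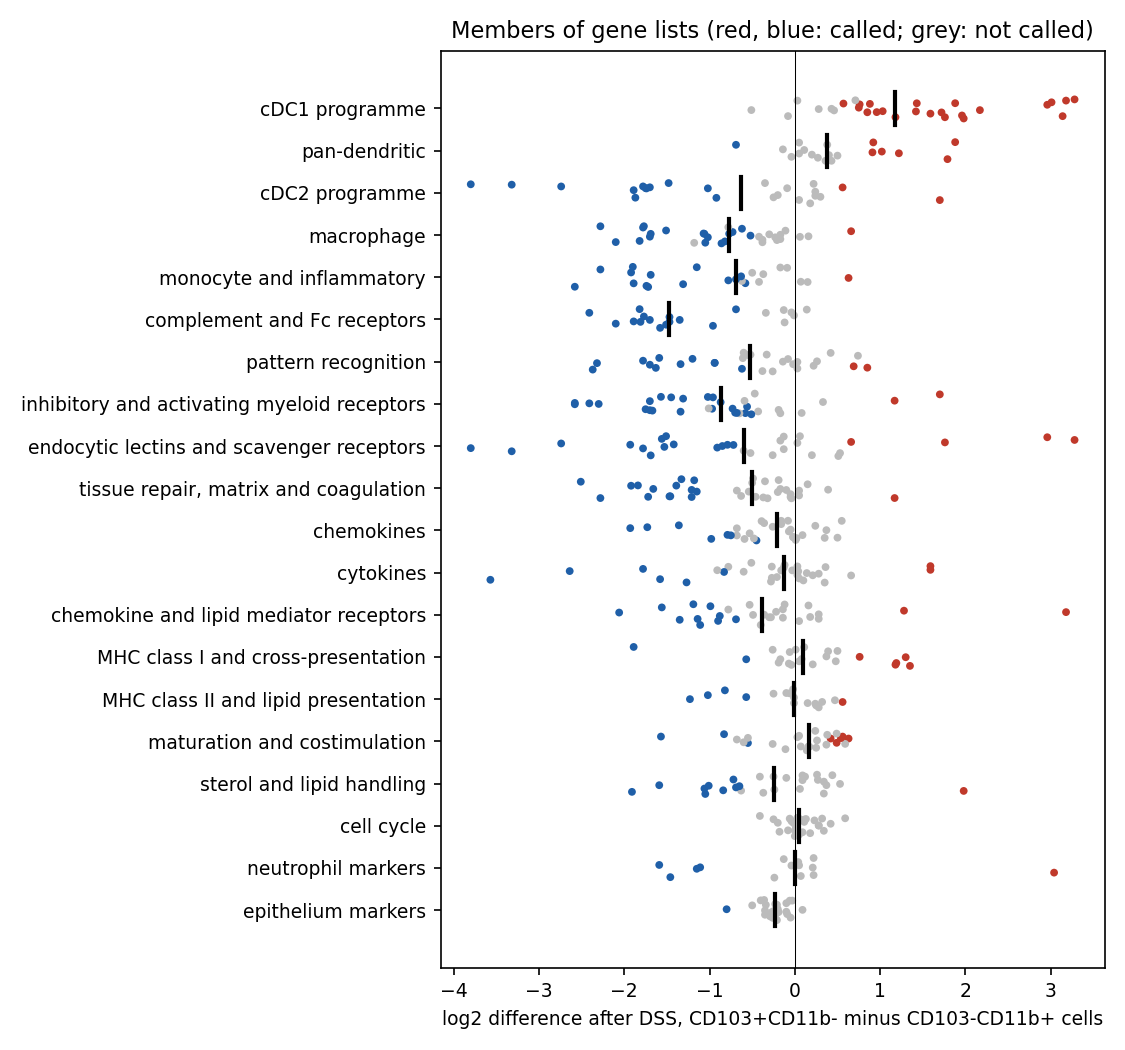
Log2 difference after DSS (CD103+CD11b- minus CD103-CD11b+) of each tested member of 20 gene lists, 1 point per gene, with the list median as a black bar. Points are red where called higher, blue where called lower and grey where not called, and the medians run from 1.18 for the cDC1 programme to -1.47 for complement and Fc receptors.

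Markers of other cells that a sort could carry over were examined in the same arrays. Of 14 neutrophil genes, 4 were lower (28.6%, against 4.34% of all genes) and 1 higher, and the defining S100a8 (0.22 ± 0.52), S100a9 (0.21 ± 0.51) and Ly6g (-0.24 ± 0.60) were not called. Their spread between arrays was wide, with an SD of 1.31 for S100a8 in CD103+CD11b- cells and of 1.42 for Ly6g in CD103-CD11b+ cells. The neutrophil genes called were Stfa2 (3.04), Clec4e (-1.59), Csf3r (-1.46), Mmp8 (-1.15, a bound) and Il1r2 (-1.11), and Il1r2 was high in both subsets, with an untreated difference of -0.72. The mean level of the 14 genes overlapped, at 5.18 to 5.74 in CD103+CD11b- and 5.27 to 6.04 in CD103-CD11b+ arrays.

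Epithelial transcripts were present at some level in both subsets, since Muc2 measured 8.58 ± 0.24 and 8.64 ± 0.52 (SD, n = 3) and Epcam 7.13 ± 0.21 and 7.48 ± 0.17. Of 27 epithelial genes, 1 was lower, which is 3.7% against 4.34% of all genes (Cdh1, which encodes E-cadherin, -0.80, adjusted p = 0.00484), and the mean level was 7.33 to 7.56 against 7.39 to 8.05. Of 13 plasmacytoid dendritic cell genes, 4 were lower, namely Cd209d, Ccr9, Tlr7 and Tcf4 (30.8%), whereas Siglech, the defining marker, differed by -0.43 ± 0.29 and was not called. Their mean level did not overlap, at 5.32 to 5.44 against 5.83 to 5.92.

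Lymphocyte genes gave 3 lower of 19 for T, NK and innate lymphoid cells (15.8%) and 1 lower of 15 for B and plasma cells (Prdm1, 6.67%), against 4.34% of all genes. Il7r measured 8.82, 8.24 and 8.03 against 10.25, 10.33 and 10.04, 3.59-fold less (adjusted p = 6.74e-07). Cd4 was 2.34-fold less and Klrd1 1.80-fold, calls lost without 1 and 4 single arrays (adjusted p up to 0.0524 and 0.165), and Cd3e was not called (-0.24 ± 0.21). The lymphocyte mean level was 5.78 to 5.91 against 6.08 to 6.17. Of 10 eosinophil and mast cell genes, Kit was higher and Hdc, histidine decarboxylase, lower (2.20-fold less). This is 10% each way, against 4.19% and 4.34% of all genes. Pecam1 (-0.84) was the gene called of 22 stromal and endothelial genes (4.55%, near the 4.34% of all genes called lower). Of 2 erythroid genes, 0 were called or reached an unadjusted p under 0.05. The mean levels were 5.05 to 5.43 against 5.37 to 5.61 for eosinophil and mast cell genes, 6.86 to 6.95 against 6.90 to 7.16 for B and plasma cell genes, and 5.95 to 6.03 against 5.97 to 6.19 for stroma. The part of such cells in the differences was not tested.

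The same pair of subsets was compared in untreated mice, on arrays not shared with the DSS comparison. There the test called 1447 genes (10.3%), with 702 more and 745 less abundant in CD103+CD11b- cells. Of these, 884 were also called after DSS with the same sign, which is 74% of the DSS calls and 61.1% of the untreated calls, and 0 were called with opposite sign. Of the 1195 genes called after DSS, 1179 (98.7%) had the same sign in untreated mice. In 518 of the 884 genes the difference was smaller after DSS, and the median size was 0.954 after DSS against 0.981 in untreated mice. Across all genes tested the differences of both conditions correlated at 0.82, a description over genes that are not independent.

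A test of the change itself, the DSS difference minus the untreated difference, called 0 of 14003 genes in limma (0%), and 510 genes (3.64%) had an unadjusted p under 0.05. None of the 311 genes called only after DSS passed this test, so that none is shown to be particular to colitis. No experiment held both conditions, so DSS and experiment cannot be told apart in this comparison. Its median standard error was 0.235, larger than that of the DSS comparison alone.

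The genes with the lowest p for this change were Pdia5, Sirpa, Itgae, Olfr1347 and B3galt4. Pdia5, a protein disulfide isomerase of the endoplasmic reticulum, measured 5.32, 5.76 and 5.65 in CD103+CD11b- cells after DSS and 4.20, 4.31 and 4.18 in CD103-CD11b+ cells. Its difference was 1.35 ± 0.14 after DSS and 0.23 in untreated mice, where the means were 4.45 and 4.22 (limma p of the change = 2.26e-05, adjusted p = 0.316). Sirpa differed by -1.70 after DSS and by -2.62 in untreated mice. The Sirpa mean of CD103+CD11b- cells was 7.33 after DSS and 6.49 without it, and that of CD103-CD11b+ cells was 9.03 and 9.11. Itgae differed by 2.17 after DSS and 3.01 in untreated mice, with means in CD103-CD11b+ cells of 7.44 and 6.35.

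The defining cDC1 and cDC2 genes kept their direction in both conditions. Xcr1 differed by 3.18 after DSS against 4.24 in untreated mice, Clec9a by 2.96 against 3.94, and Gpr33 by 3.01 against 4.14, and in each the mean of CD103-CD11b+ cells was higher after DSS (6.3 against 5.38 for Xcr1, 5.34 against 3.94 for Clec9a, 5.82 against 4.33 for Gpr33). Cd207 and Gcsam went the other way, with larger differences after DSS (3.28 against 2.71, and 3.14 against 2.64). Their CD103-CD11b+ means were 5.98 after DSS and 7.01 without it for Cd207, and 4.17 and 4.22 for Gcsam. Mgl2 differed by -3.80 against -4.62, with a CD103+CD11b- mean of 5.50 after DSS and 4.46 without it. Of the 21 cDC1 genes called in both conditions, 14 had the smaller difference after DSS, and so had 12 of 14 cDC2 genes, 17 of 18 macrophage genes, 13 of 14 complement and Fc receptor genes, 10 of 11 pattern recognition genes, 15 of 18 endocytic receptors and 19 of 20 paired myeloid receptors. The count was 10 of 16 for lineage transcription factors and 8 of 12 for tissue repair genes. It was 5 of 10 for chemokine and lipid mediator receptors, 4 of 10 for monocyte and inflammatory genes, 2 of 5 for maturation genes and 1 of 6 for general dendritic cell genes. These are counts without a test, to be read beside 518 of 884 for all genes.

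Some genes were called after DSS and not in untreated mice. Il33 differed by -1.27 after DSS and by 0.05 in untreated mice (adjusted p = 0.966), and Mmp8 by -1.15 against -0.26. S1pr3 was called in both conditions but differed by -1.56 after DSS and by -0.68 without it. For none of these was the change between conditions called.

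**Figure D5:**
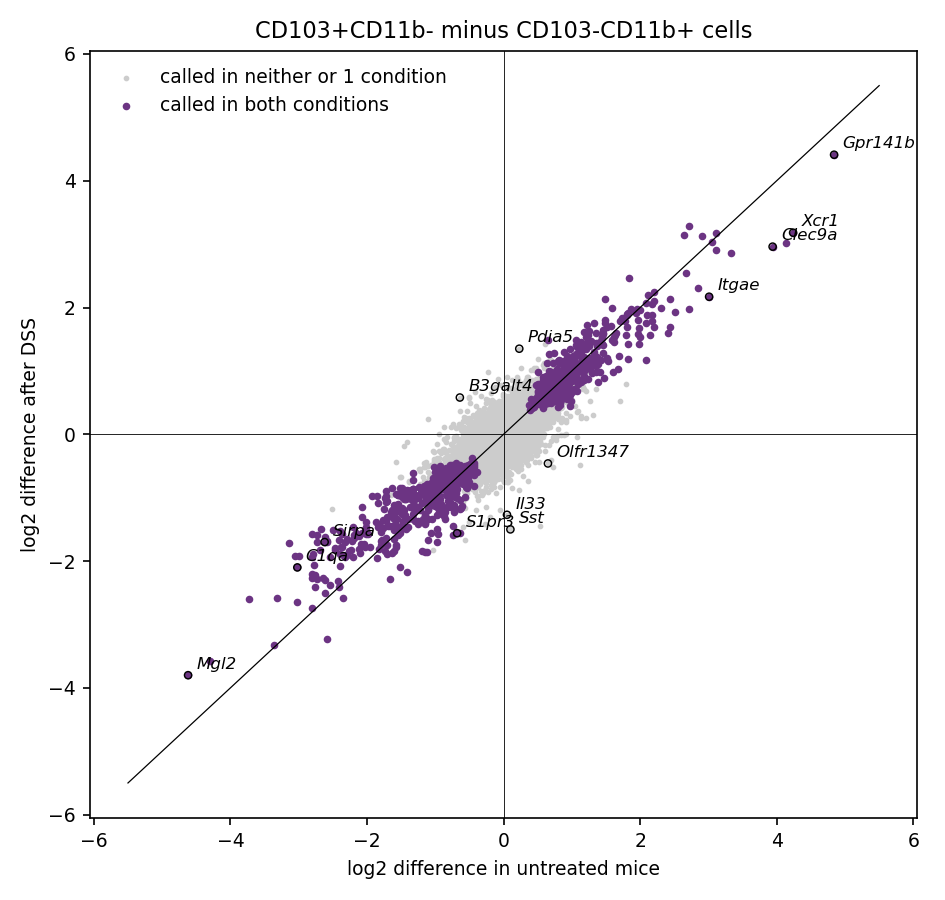
Log2 difference between CD103+CD11b- and CD103-CD11b+ cells in untreated mice (horizontal axis) and after DSS (vertical axis) for each tested gene, with the line of equal difference. The 884 genes called in both conditions with the same sign (purple) lie in the lower left and upper right, and named genes are circled, among them Pdia5 (0.23 and 1.35) and Sirpa (-2.62 and -1.70).

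Double-positive CD103+CD11b+ cells from the same experiments placed the comparison among the subsets. In a principal component analysis of the 9 DSS arrays, the first component held 38% of the variance and the second 14.7%. On the first, CD103+CD11b- arrays lay between -28.6 and -26.2, CD103+CD11b+ arrays between 7.37 and 8.83, and CD103-CD11b+ arrays between 15.8 and 20.2. Of the 1195 genes called between the outer subsets, the double-positive mean lay between both in 901 (75.4%), against 39.6% of all genes tested. The called genes were selected for a gap between the outer subsets, with a median absolute difference of 0.846 against 0.154 over all genes. A wide gap encloses another mean more easily, so the excess over 39.6% cannot by itself place the double-positive cells. The double-positive mean was nearer to the CD103-CD11b+ mean in 804 of the called genes (67.3%), against 55.3% of all genes. These 804 were 477 of the 587 higher and 327 of the 608 lower genes. For the cDC1 receptor Xcr1 the double-positive mean was 7.04 and for Clec9a 5.36, whereas for the macrophage receptor Csf1r it was 7.85, nearer the CD103+CD11b- mean of 7.19 than the CD103-CD11b+ mean of 9.47.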

How the data were processed

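Total RNA of sorted cells was measured on 18 Affymetrix arrays. Per the labels' protocols, 5 ng of RNA was amplified with a NuGEN Ovation Pico kit and 5.5 ug of DNA was labelled. The deposited log2 values were made by the authors with RMA, per the submitters' processing notes, and were used as deposited. RMA corrects background and forces the arrays to one distribution, so that a shift shared by all genes cannot be seen. The values ran from 1.07 to 13.16. An array has no read depth, and the 3 arrays per group limit the precision.

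Of 34760 probe sets, the 21640 with 1 gene symbol were used (1321 had several, 11799 none), and 21553 of them matched RefSeq. A probe set was kept above the 40th percentile of all values (3.51) in at least 3 arrays, and the kept probe set with the highest mean stood for its gene. A difference with a group mean under 3.51 is a lower bound. All 18 arrays entered 1 fit with a mean per group, run in limma 3.58.1. The software was R 4.3.3, and tables were read with data.table, version 1.17.8. Tests were two-sided with Benjamini-Hochberg adjustment over 14003 genes at 0.05, and the fit was tested on simulated data.

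The experiment number pairs the DSS subsets: the 9 same-numbered pairs of arrays from different subsets correlated at 0.11 to 0.31 in their residuals. The 18 other pairs from different subsets had a median of -0.13. Residuals from a group mean are tied together, so that this negative median is no separate evidence. Among arrays of the other subsets, the closest had the same experiment number for 9 of 9 arrays. A fit with this number as a replicate block was run as an alternative. The comparison and its 32 gene lists (769 genes, 666 tested, 34 under the filter, 69 without a usable probe set) were chosen with earlier results of these data known. Genes were named by rule: the sort genes, the 15 largest non-overlapping called differences each way, up to 5 called members per list and direction, all lineage transcription factors, the called markers of other cells, and the 5 genes of lowest p for the change between conditions. Other list members, and Sst, were named after their values were seen. Alternatives were another normalization, filter, choice of probe set, variance model, set of arrays, the replicate block and each array left out.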

Additional observations from a re-analysis of the deposited data

Results flagged for a closer look

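For a pair of genes, the subset difference had one sign in all 3 DSS experiments and the opposite sign in all 3 untreated ones. B3galt4, a galactosyltransferase, differed by 0.58 after DSS and by -0.64 in untreated mice, a change of 1.22. Olfr1347, an olfactory receptor gene near the filter level, differed by -0.46 after DSS and by 0.65 in untreated mice, a change of -1.12. Neither change was called by limma (adjusted p = 1 for both; unadjusted p = 0.000735 and 0.000305). With the replicate block the Olfr1347 difference after DSS was called (adjusted p = 0.0455, against 0.138 without it). The search covered the named genes only. B3galt4 and Olfr1347 were named for a low p of this change, so that their signs are no separate support. Of the 14003 genes tested, 232 had such opposite signs in all experiments.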

How the results depend on the processing

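The DSS count of 1195 genes lay between 912 and 1446 in the alternatives listed in the methods. Leaving out each array in turn gave 912 to 1062 genes, and array weights gave 1446. The replicate block called 1344, of which 1168 were shared with the main result, while 27 were lost. For the change between conditions, leaving out each array gave 0 to 1 genes. The 1 gene was Sst, somatostatin, without the CD103-CD11b+ array of experiment 6 (-2.54, adjusted p = 0.00459). Sst measured 6.90, 7.14 and 4.20 in CD103-CD11b+ cells and 4.76, 4.48 and 4.50 in CD103+CD11b- cells, so that the array of experiment 6 stood apart. Alternatives added after seeing the data left out whole experiments. Without experiment 4, 5 or 6 the DSS count was 622, 770 or 680, with fewer arrays in each fit, and the change between conditions called 1 gene (Sst, adjusted p = 0.0464) without experiment 6. At an adjusted p under 0.01 in both conditions, 570 genes were shared in place of 884, and the replicate block gave 978. The untreated count ran from 1053 to 1267 without single arrays. With only the groups compared in the fit it was 975, against 1173 after DSS. Array weights gave 1446 in both conditions, and the replicate block gave 1537 untreated calls against 1344 after DSS. Of 157 named genes called after DSS, 128 kept their call in all 16 alternatives and 29 lost it in at least 1, and 0 reversed. The replicate block ended the calls of Socs1 (adjusted p = 0.0567) and Rdh11 (0.0507), and it gave calls for Id2 (0.0359), Olfr1347 (0.0455) and Sst (0.0286, against 0.0629 without it). Background correction could not be varied, and values near 3.51 have no detection call. Over the alternatives the interferon-gamma list ranged from 0 to 3 calls each way, type I interferon genes from 1 to 3 higher and 0 to 5 lower, and maturation genes from 1 to 7 higher and 2 to 4 lower. Macrophage genes ranged from 14 to 21 lower and paired myeloid receptors from 15 to 24 lower.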
